A study of Mus musculus with 25 samples.

Results

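The cytochromes of the *Cyp2a* and *Cyp2b* subfamilies, *Cyp2a4*, *Cyp2a5*, *Cyp2a22*, *Cyp2b9*, *Cyp2b10* and *Cyp2b13*, were followed together with *Nr1i3*, the gene of the nuclear receptor CAR. These are 7 of the 48795 genes in the expression files, and they were chosen by name. The choice was made with results of these libraries known: *Cyp2a4* and *Cyp2b9* had drawn attention by their increase in DEN L-CD over nonDEN L-CD, so that increase is given as a description with no test. All 25 libraries came from liver tissue of male C57BL/6J mice, an inbred strain, harvested at 36 to 39 weeks of age. Untreated mice gave 3 livers on the control diet, named nonDEN L-CD, and 4 on the western diet, named nonDEN L-WD. Mice given DEN gave 4 livers on the control diet, named DEN L-CD, and on the western diet 8 samples of the liver around tumors, named DEN PT-WD, and 6 tumors, named DEN T-WD. DEN (diethylnitrosamine), a carcinogen that liver cells convert into a DNA-alkylating form, was injected at 25 mg/kg at 2 weeks of age, and no vehicle injection of the untreated mice is stated. The labels do not say which tumor and peritumoral samples came from the same mouse, so some may share an animal and the p-values measure only the spread between these samples.

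CYP2A and CYP2B enzymes are membrane-bound monooxygenases of the endoplasmic reticulum that oxidize drugs, steroids and environmental chemicals, and CYP2A5 also oxidizes nitrosamines, nicotine and coumarin. CAR is held in the cytoplasm of hepatocytes until drugs such as phenobarbital release it, after which it pairs with RXR and switches on genes led by *Cyp2b10*. In mouse liver *Cyp2a4*, *Cyp2b9* and *Cyp2b13* are female-predominant genes, kept low in adult males by the pulsed pattern of growth hormone.

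All 6 cytochrome genes lie in one cluster on chromosome 7 of GRCm38. Per the GENCODE annotation, *Cyp2b10* spans 25897620 to 25926624, *Cyp2b13* 26061497 to 26096197, *Cyp2b9* 26173411 to 26210661, *Cyp2a4* 26307169 to 26315088 and *Cyp2a5* 26835305 to 26843548, all on the plus strand. *Cyp2a22* spans 26931631 to 26939384 on the minus strand, and *Nr1i3* lies on chromosome 1 from 171213970 to 171220701 on the plus strand. The cluster holds near-identical neighbours, and the upstream sequences of both pairs are shown for comparison. The stretches run from 250 to 51 bases before the RefSeq transcript start (GRCm38.p6, plus strand), and capitals mark the bases at which the members of a pair differ.
*Cyp2a4*, chr7:26306942-26307141: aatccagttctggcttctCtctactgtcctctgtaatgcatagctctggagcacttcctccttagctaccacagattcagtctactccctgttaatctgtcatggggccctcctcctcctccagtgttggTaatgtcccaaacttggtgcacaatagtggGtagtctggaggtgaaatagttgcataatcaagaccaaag
*Cyp2a5*, chr7:26835089-26835288: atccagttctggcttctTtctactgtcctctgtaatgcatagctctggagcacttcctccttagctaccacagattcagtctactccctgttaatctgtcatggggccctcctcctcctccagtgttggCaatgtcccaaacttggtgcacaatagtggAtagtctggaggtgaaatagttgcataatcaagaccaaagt
*Cyp2b9*, chr7:26173159-26173358: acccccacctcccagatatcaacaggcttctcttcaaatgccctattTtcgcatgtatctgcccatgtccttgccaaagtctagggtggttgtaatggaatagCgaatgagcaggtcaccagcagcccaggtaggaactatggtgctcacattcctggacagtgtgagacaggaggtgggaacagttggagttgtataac
*Cyp2b13*, chr7:26061245-26061444: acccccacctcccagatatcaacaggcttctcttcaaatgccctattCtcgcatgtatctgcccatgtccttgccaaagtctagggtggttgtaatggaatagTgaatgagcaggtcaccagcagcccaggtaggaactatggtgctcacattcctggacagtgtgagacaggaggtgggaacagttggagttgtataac
The *Cyp2a4* and *Cyp2a5* stretches differed by 3 substitutions, beside 1 unpaired base at an end of each, and were 97.5% identical. The *Cyp2b9* and *Cyp2b13* stretches differed by 2 substitutions over 200 bases and were 99.0% identical. Both *Cyp2b* stretches hold the nuclear receptor half-site AGGTCA, 138 to 133 bases before the start, a word that occurs on either strand in 11.4% of the 32851 RefSeq windows searched over the same positions. No other member's stretch held AGGTCA. None of the 7 stretches held TTATGTAA, CAAAGTCCA or TTCNNNGAA on either strand, the D-box, HNF4 and STAT5 motifs, which occur in 0.658%, 0.295% and 5.76% of the windows.

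Stretches shared between transcripts limit how far reads can be told apart. Of the 74-base words in *Cyp2a4* transcripts, the length of a read, 22.6% also occur in other genes, mostly in *Cyp2a5* (21.4%). The share was 22.8% for *Cyp2a5*, 16.8% for *Cyp2b13*, 9.56% for *Cyp2a22* and 5.32% for *Cyp2b9*, so that these levels are uncertain to the extent that reads were divided between copies. With 2195 to 3698 expected counts of *Cyp2a5*, the nonDEN L-CD libraries held 1.42 to 2.4 of *Cyp2a4*, 0.0384% to 0.0724% of the *Cyp2a5* count. This limits the spill from *Cyp2a5* to *Cyp2a4* in those libraries only. How reads were divided where both copies are expressed was not tested. *Nr1i3* overlaps *Tomm40l*, a mitochondrial import gene on the opposite strand, and shares 58.3% of its words with it. The use of strand in counting is not stated, so reads of the overlap cannot be assigned with certainty.

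Libraries held 21530083 to 38074411 expected counts. The hepatocyte markers *Alb*, *Ttr*, *Apoa1*, *Apob*, *Tat* and *Serpina1a* summed to 32217 to 134373 TPM (a transcript level scaled for gene length and library size), as liver tissue would give. In all, 4 libraries stood apart. DEN T-WD replicate 5 had the lowest hepatocyte marker sum, 32217 TPM, against a tumor median of 122354 TPM, and DEN PT-WD replicate 7 had the lowest peritumoral sum, 40059 TPM. In nonDEN L-CD replicates 2 and 3 the acute phase list summed to 41947 and 42484 TPM, against 10854 to 25044 TPM elsewhere. RNA of pancreas acinar cells, an organ that lies beside the liver, ranged from 0.25 to 5124 TPM over the libraries. In these bulk samples, fewer cells of a type and less RNA per cell cannot be told apart.

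*Cyp2a4*, a steroid hydroxylase, ran from absent or nearly absent in untreated livers to abundant in tumors. In nonDEN L-CD it stood at 0.04, 0.05 and 0.07 TPM. In nonDEN L-WD the libraries read 12.75, 1.06, 0.25 and 0 TPM, so that replicate 1 alone carried most of the group's signal. DEN L-CD libraries stood higher, at 38.4, 37.7, 82.4 and 239 TPM. In DEN PT-WD the lowest, median and highest values were 69.3, 376 and 821 TPM, and in DEN T-WD they were 1779, 2240 and 3015 TPM. Tumors did not overlap any other group, and no DEN library overlapped any nonDEN library. DEN PT-WD overlapped DEN L-CD, and nonDEN L-WD overlapped nonDEN L-CD.

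**Figure D1:**
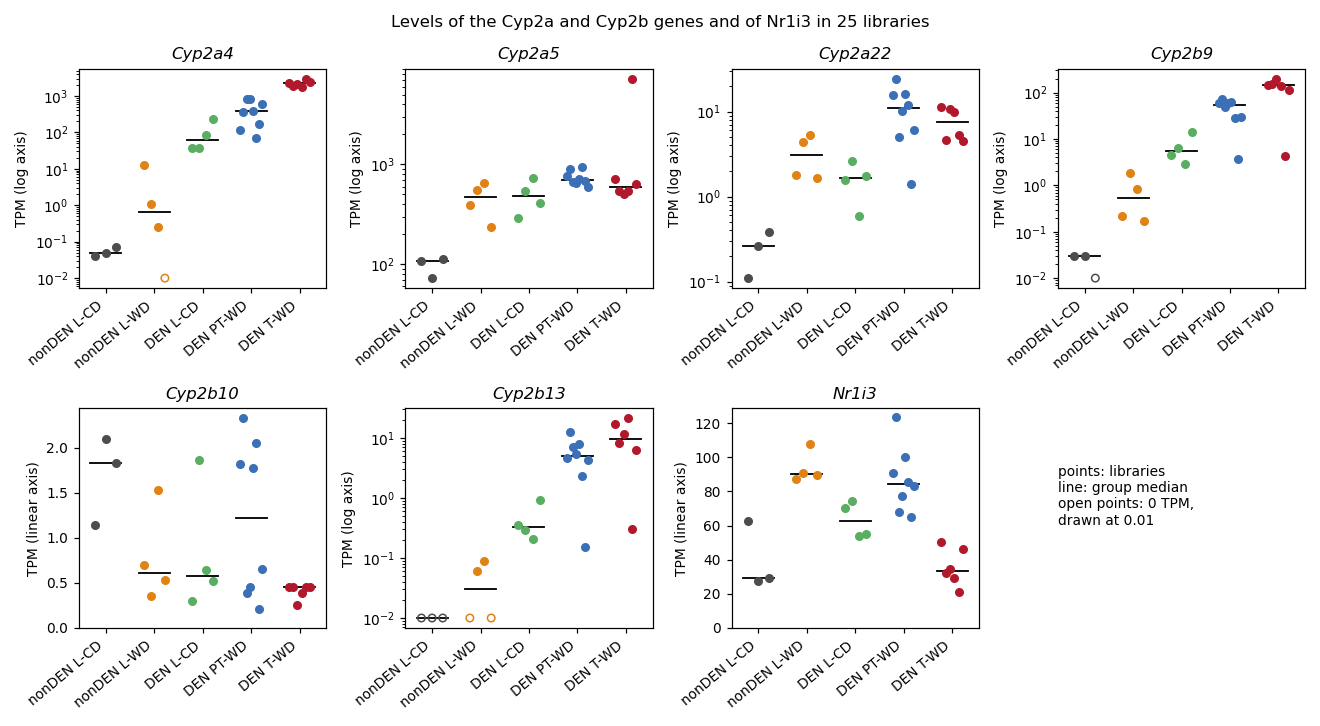
TPM of each gene (vertical axis, log scale except for *Cyp2b10* and *Nr1i3*) in every library of the 5 groups; lines are group medians and open points are libraries at 0 TPM, drawn at 0.01. *Cyp2a4*, *Cyp2b9* and *Cyp2b13* climb from nonDEN L-CD to DEN T-WD, 1 tumor library (replicate 5, 7248 TPM) lies far above the rest for *Cyp2a5*, and the *Nr1i3* points of the tumors (20.8 to 50.2 TPM) lie below all peritumoral points.

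*Cyp2a5*, the main coumarin hydroxylase of mouse liver, was abundant in every group. The nonDEN L-CD libraries read 107, 72.5 and 113 TPM and lay below all others. The nonDEN L-WD libraries read 394, 558, 655 and 235 TPM and the DEN L-CD libraries 289, 545, 738 and 412 TPM, so that these ranges overlapped. DEN PT-WD ranged from 589 to 943 TPM with a median of 697 TPM. In DEN T-WD, 5 tumors lay between 504 and 710 TPM and replicate 5 reached 7248 TPM.

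That library also held more of several genes of glutathione conjugation and efflux than any other tumor. *Gstm3* read 1672 TPM against 48.4 to 129 TPM in the other 5 tumors, *Gsta1* 3244 against 63.7 to 157 TPM, *Gstm1* 9706 against 1099 to 2382 TPM and the efflux pump *Abcc4* 102 against 3.50 to 7.28 TPM. In the same library *Cyp2a4* was the highest of the tumors, at 3015 TPM, while *Cyp2b9* (4.25 TPM), *Cyp2b13* (0.30 TPM) and *Nr1i3* (20.8 TPM) were the lowest.

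The balance within the near-identical pair shifted across the groups. *Cyp2a4* made up 0.0374% to 0.0689% of the summed *Cyp2a4* and *Cyp2a5* TPM in nonDEN L-CD and 0% to 3.14% in nonDEN L-WD. The share was 6.46% to 36.8% in DEN L-CD, 6.85% to 55.6% in DEN PT-WD (median 32.1%) and 29.4% to 81.0% in DEN T-WD (median 77.3%). The lowest tumor value, 29.4%, belonged to replicate 5.

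**Figure D2:**
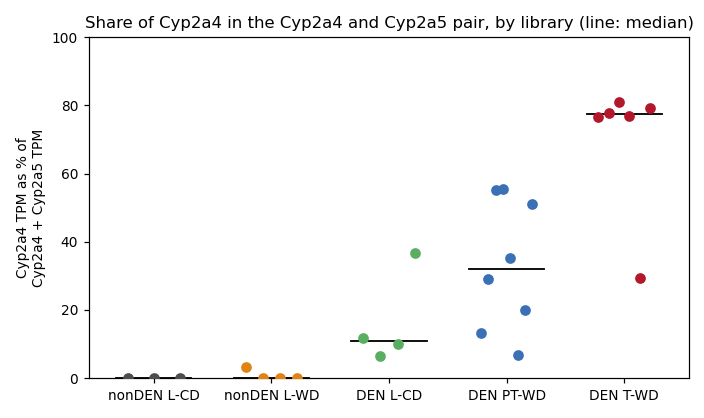
*Cyp2a4* TPM as a percent of the *Cyp2a4* and *Cyp2a5* TPM sum (vertical axis) in each library, by group; lines are medians. Untreated livers lie at or near 0, with 1 nonDEN L-WD library at 3.14%, and 5 of the 6 tumors lie close together near the median of 77.3%, with replicate 5 at 29.4%.

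*Cyp2a22*, a little-studied member of the subfamily, stayed low, and its highest libraries were peritumoral rather than tumors. The values were 0.11, 0.26 and 0.38 TPM in nonDEN L-CD, 1.80, 4.39, 5.38 and 1.67 TPM in nonDEN L-WD, and 1.59, 2.61, 0.59 and 1.76 TPM in DEN L-CD. DEN PT-WD ran from 1.42 (replicate 7) through a median of 11.1 to 24.5 TPM, and DEN T-WD from 4.51 through 7.62 to 11.4 TPM. Only nonDEN L-CD was separate from every other group.

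*Cyp2b9*, a steroid-metabolizing enzyme, followed the order of *Cyp2a4* at lower levels. The nonDEN L-CD libraries read 0.03, 0.03 and 0 TPM and the nonDEN L-WD libraries 0.22, 1.83, 0.83 and 0.17 TPM. DEN L-CD read 4.51, 6.51, 2.94 and 13.9 TPM. DEN PT-WD ran from 3.72 through a median of 53.5 to 73.1 TPM, and DEN T-WD from 4.25 through 143 to 201 TPM. Without DEN PT-WD replicate 7 and DEN T-WD replicate 5, the lowest libraries of their groups, these 2 groups ran from 28.6 to 73.1 TPM and from 112 to 201 TPM and did not overlap.

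*Cyp2b13* lay below *Cyp2b9* in every group. It was listed at 0 in all nonDEN L-CD libraries and read 0 to 0.09 TPM in nonDEN L-WD, with at most 3.31 expected counts. DEN L-CD read 0.36, 0.29, 0.21 and 0.92 TPM, DEN PT-WD 0.15 to 12.5 TPM (median 5.01) and DEN T-WD 0.30 to 21.1 TPM (median 9.77). The lowest peritumoral and tumor libraries were again replicates 7 and 5. Over the 25 libraries the log2 CPM (library-scaled counts) of *Cyp2b13* and *Cyp2b9* had a Pearson r of 0.96, and their deviations from the group means had an r of 0.93, a description of libraries that share groups and, in part, reads.

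*Cyp2b10*, the classical CAR-induced gene, was low in every library, at 0.21 to 2.33 TPM. Its highest group mean was that of nonDEN L-CD, 1.69 ± 0.495 TPM (SD, n = 3), and its lowest that of DEN T-WD, 0.412 ± 0.0788 TPM (SD, n = 6). The nonDEN L-WD libraries read 0.70, 0.35, 1.53 and 0.53 TPM and DEN L-CD 0.30, 1.86, 0.64 and 0.52 TPM. DEN PT-WD ran from 0.21 to 2.33 TPM with a median of 1.22, and the 6 tumors from 0.26 to 0.46 TPM. Every nonDEN L-CD library lay above every tumor, and DEN PT-WD spanned the values of both.

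*Nr1i3* was well expressed throughout. The nonDEN L-CD libraries read 62.5, 27.6 and 29.5 TPM, and the latter values belong to replicates 2 and 3, the libraries with the high acute phase sums. The part of the acute phase difference in these values was not tested. The nonDEN L-WD libraries read 87.3, 90.9, 108 and 89.7 TPM, the highest group by mean, and DEN L-CD 70.2, 74.1, 53.8 and 55.0 TPM. DEN PT-WD ran from 65.1 through a median of 84.5 to 124 TPM, and DEN T-WD from 20.8 through 33.4 to 50.2 TPM. *Tomm40l*, the overlapping gene, read 6.53 to 12.2 TPM in DEN PT-WD and 12.7 to 16.2 TPM in DEN T-WD, the opposite order.

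DEN PT-WD was compared with nonDEN L-WD to set liver of DEN-treated mice against liver of untreated mice under the western diet. The DEN PT-WD samples lay beside tumors, so DEN and nearness to a tumor cannot be told apart here. Since the genes were chosen with results of these libraries known, the tests do not stand apart from the choice. *Cyp2a4*, *Cyp2b9* and *Cyp2b13* lay far above their levels in the untreated livers, and the other 4 members did not pass the test. For calls, edgeR's quasi-likelihood test had to give a Benjamini-Hochberg adjusted p over 15625 genes no larger than 0.05 and a change of 1 or more on the log2 scale in either direction, which 2.36% of all tested genes met as higher and 0.41% as lower. These 3 genes entered the test only through the DEN groups, in which they are high: 10 counts, the minimum of the filter on low counts, were reached in 2 of 7 nonDEN libraries by *Cyp2a4* and by *Cyp2b9* and in 0 of 7 by *Cyp2b13*, against 18, 18 and 15 of the 18 DEN libraries. Their differences are therefore given as a description, with no p. *Cyp2a4* differed by 6.74 ± 1.12 (log2 fold change ± SE). The value rests in part on nonDEN L-WD replicate 1, without which it was 9.76. *Cyp2b9* differed by 5.72 ± 0.93, and by 6.54 without nonDEN L-WD replicate 2. *Cyp2b13* had a ratio of counts of 136, with a 95% counting interval of 58.3 to 420. Its log2 fold change from edgeR was 6.99, and 7.81 without nonDEN L-WD replicate 3. Every DEN PT-WD library lay above every nonDEN L-WD library for all 3 genes.

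*Cyp2a22* had a log2 fold change of 1.53 ± 0.53 and an adjusted p of 0.0573. It passed with DESeq2 (adjusted p = 0.0304), with the replicate number as a block (0.0285) and without DEN PT-WD replicate 7 (0.0171). *Cyp2a5* (0.40 ± 0.54, adjusted p = 0.668), *Cyp2b10* (0.41 ± 0.56, adjusted p = 0.667) and *Nr1i3* (-0.37 ± 0.24, adjusted p = 0.309) did not pass. With the counts of each subfamily's members pooled, the summed *Cyp2b* count differed by 4.85 ± 0.83 and the summed *Cyp2a* count by 1.10 ± 0.32. These sums hold *Cyp2a4*, *Cyp2b9* and *Cyp2b13* and are likewise a description, with no p. The macrophage, stellate and endothelial marker sums had higher medians in DEN PT-WD, 182, 282 and 74.2 TPM against 110, 173 and 50.2 TPM in nonDEN L-WD, as did the lymphocyte sum, 13.6 against 7.17 TPM, and their part in the result was not tested. Hepatocyte marker sums overlapped, with medians of 57605 and 62487 TPM.

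**Figure D3:**
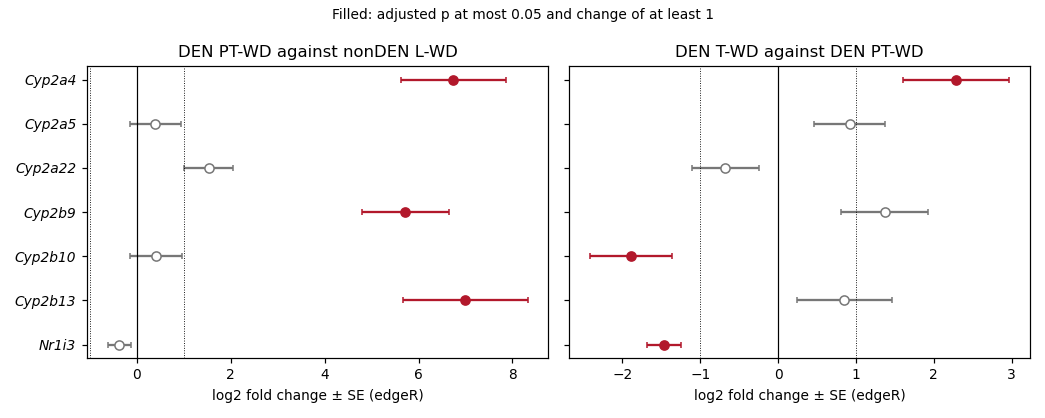
log2 fold change ± SE from edgeR (horizontal axis) for the 7 members in the 2 tested comparisons; filled points met both thresholds of a call and dotted lines mark a change of 1. *Cyp2a4*, *Cyp2b9* and *Cyp2b13* lie far to the right in DEN PT-WD against nonDEN L-WD, where their points are a description only and that of *Cyp2b13* is set against at most 3 counts a library, and *Nr1i3* and *Cyp2b10* lie to the left in DEN T-WD against DEN PT-WD.

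DEN T-WD was compared with DEN PT-WD to set tumors against the liver around them. *Cyp2a4* rose while *Nr1i3* and the CAR gene *Cyp2b10* fell. Of all tested genes 4.81% were higher and 3.09% lower. *Cyp2a4* rose by 2.29 ± 0.68 (adjusted p = 0.0112 by edgeR), from a mean of 420 ± 302 TPM (SD, n = 8) to 2272 ± 447 TPM (SD, n = 6). *Nr1i3* fell by 1.46 on the log2 scale with an SE of 0.22 (adjusted p = 2.42e-05), from 86.7 ± 18.8 to 35.5 ± 10.9 TPM, and the groups did not overlap. *Cyp2b10* fell by 1.89 with an SE of 0.53 (adjusted p = 0.00734), on low counts of 8.0 to 76.2 in DEN PT-WD and 9.05 to 13.9 in DEN T-WD, and the groups overlapped. These 3 calls held under all 20 alternatives run for the cytochromes and all 21 for *Nr1i3*.

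The remaining cytochromes did not pass in tumors. *Cyp2b9* had a log2 fold change of 1.37 ± 0.56 (adjusted p = 0.0558) and passed without DEN T-WD replicate 5, at 1.63 ± 0.44 (adjusted p = 0.00466), and without DEN PT-WD replicate 2, at 1.51 ± 0.58 (adjusted p = 0.0483). *Cyp2b13* had 0.85 ± 0.61 (adjusted p = 0.294) and *Cyp2a22* -0.68 ± 0.43 (adjusted p = 0.231). *Cyp2a5* had 0.92 ± 0.46 (adjusted p = 0.125), a value that replicate 5 sets: without it the log2 fold change was -0.48 ± 0.21 (adjusted p = 0.0691). The summed *Cyp2a* count rose by 1.60 ± 0.27 (adjusted p = 8.67e-05), and the summed *Cyp2b* count had 1.29 ± 0.54 (adjusted p = 0.0624). The pericentral hepatocyte markers, a list that includes *Glul*, *Oat* and *Cyp2e1*, fell in tumors for 6 of 9 genes, and their sum had a median of 2572 TPM against 6862 TPM in DEN PT-WD without overlap of the groups. Several members are themselves known as pericentral genes, and the part of this list's change in theirs was not tested. The hepatocyte sum had a median of 122354 TPM in tumors against 57605 TPM, with 1 of 6 markers called higher, the macrophage sum 116 against 182 TPM, with 2 of 5 called lower, and the bile duct sum 8.92 against 6.92 TPM, with 1 of 4 called higher. Their part was not tested either.

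The comparisons against nonDEN L-CD, and that of DEN PT-WD with DEN L-CD, share libraries with the contrast that drew attention to the genes and are described without tests. DEN L-CD held 11941 rounded counts of *Cyp2a4* against 5 in nonDEN L-CD, a ratio of 1820 per normalized library (95% counting interval 778 to 5590). Its log2 fold change was 10.77, and 9.87 to 11.04 with 1 library left out at a time. For *Cyp2b9* the counts were 921 against 2, a ratio of 350 (96.7 to 2900). *Cyp2b13* lay at least 5.02-fold above nonDEN L-CD, whose libraries were set at a floor of 3 counts each. *Cyp2a5* differed by 2.18 ± 0.71 and *Cyp2a22* by 2.86 ± 0.90 on the log2 scale, *Cyp2b10* by -1.0 ± 0.67 and *Nr1i3* by 0.52 ± 0.30. The *Cyp2b10* value was -1.75 without DEN L-CD replicate 2, and the *Nr1i3* value 1.13 without nonDEN L-CD replicate 1. Acute phase genes differed as well in the comparisons with nonDEN L-CD: of 15 tested, 11 fell in nonDEN L-WD, beside 2.04% of all genes, and 8 in DEN L-CD, beside 1.93%, and their part in the members' values was not tested.

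Without DEN, western diet livers differed from control diet livers by 2.02 ± 0.71 for *Cyp2a5*, 3.83 ± 0.87 for *Cyp2a22* and 1.04 ± 0.31 for *Nr1i3* on the log2 scale, each with all nonDEN L-WD libraries above all nonDEN L-CD libraries. The *Nr1i3* value was 1.64 without nonDEN L-CD replicate 1. The pericentral marker sum also did not overlap, at 7262 to 9520 against 3908 to 4458 TPM, with 1 of 9 genes called higher, and its part in these values was not tested. *Cyp2b10* differed by -1.18 ± 0.67. The *Cyp2b9* ratio was 35.8 (counting interval 9.68 to 299), and the *Cyp2a4* ratio of 61.7 (26.3 to 191) came mostly from nonDEN L-WD replicate 1. DEN PT-WD overlapped DEN L-CD for all 7 members. The log2 differences were 1.79 ± 0.84 for *Cyp2a4*, 2.40 ± 0.73 for *Cyp2b9*, 3.33 ± 0.92 for *Cyp2b13*, 2.49 ± 0.57 for *Cyp2a22*, 0.24 ± 0.53 for *Cyp2a5*, 0.23 ± 0.55 for *Cyp2b10* and 0.15 ± 0.24 for *Nr1i3*. Without DEN L-CD replicate 4 the *Cyp2a4* value was 2.69 and that of *Cyp2b13* 3.92, and *Cyp2b10* had 0.98 without DEN L-CD replicate 2 and -0.04 without DEN L-CD replicate 1. The stellate and endothelial marker sums did not overlap in this comparison, at 213 to 433 against 142 to 180 TPM and at 63.4 to 85.9 against 41.2 to 46.1 TPM, with 3 of 5 stellate genes called higher, and their part was not tested.

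CAR targets other than *Cyp2b10* were read from a list of 24 genes known to respond to CAR activators, all of which were tested. In the non-tumor comparisons few passed. In nonDEN L-WD against nonDEN L-CD 2 rose and none fell by edgeR, beside 3.24% of all genes higher and 2.04% lower, whereas DESeq2 gave 1 higher and 1 lower. An unadjusted p under 0.05 was met by 5 higher and 3 lower, and by 5591 of all 15625 genes in either direction. The edgeR calls were *Abcc3*, an efflux pump, with 1.14 ± 0.28 (adjusted p = 0.0055, edgeR) and *Aldh1a1*, a retinal dehydrogenase, with 1.00 ± 0.28 (adjusted p = 0.0122), a value at the threshold that DESeq2 did not call. In DEN L-CD against nonDEN L-CD none rose and 1 fell, beside 2.76% and 1.93% of all genes. That gene was *Gadd45b*, a stress-response gene, with -1.29 ± 0.42 (adjusted p = 0.033), called in 7 of 13 alternatives. In DEN PT-WD against nonDEN L-WD 1 rose and none fell, beside 2.36% of all genes higher and 0.41% lower, and DESeq2 gave 2 higher. It was *Akr1b7*, an aldo-keto reductase, with 2.20 ± 0.50 (adjusted p = 0.00786), at low levels of 0.67 to 2.26 against 0.11 to 0.46 TPM. Without the outlying DEN PT-WD replicate 7 and DEN T-WD replicate 5 the number rising was 4, a setting for which no all-gene share is given. In DEN PT-WD against DEN L-CD none of the 24 passed in edgeR or DESeq2, beside 1.52% of all genes called higher and 0.378% lower. An unadjusted p under 0.05 was met by 1 higher and 2 lower, and by 4267 of all 15625 genes in either direction. The list's median log2 difference in these 4 comparisons ran from -0.10 to 0.35, beside all-gene medians of 0.003 to 0.025.

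In tumors 8 of the 24 CAR targets fell and 3 rose, beside 3.09% of all genes lower and 4.81% higher, with a list median of -0.49 beside 0.01 over all genes. *Cyp2c37*, *Cyp2c29* and *Cyp2c54*, cytochromes that oxidize fatty acids and drugs, fell by 2.00, 1.99 and 1.90 on the log2 scale (adjusted p = 0.000138, 1.72e-06 and 0.000292). The pericentral markers fell in the same comparison, as given above, with *Oat* at -1.82, *Cyp2e1* at -1.67 and *Slc1a2* at -1.63, and their part in the list's values was not tested. *Cyp2c29* went from 787 ± 320 TPM (SD, n = 8) in DEN PT-WD to 219 ± 57.9 TPM (SD, n = 6) in DEN T-WD. The genes that rose were *Gsta1* (2.37 ± 0.75, adjusted p = 0.0162), *Abcc4* (2.23 ± 0.62, adjusted p = 0.00688) and *Akr1b7* (1.95 ± 0.34, adjusted p = 0.000127). Without DEN T-WD replicate 5 the first of these had -0.15 ± 0.45 (adjusted p = 0.821) and the second 0.23 ± 0.33 (adjusted p = 0.621), and *Akr1b7* remained called, at 1.73 ± 0.34 (adjusted p = 0.000305). DESeq2 called 1 of the 24 higher and 8 lower. Without both outlying libraries 11 CAR targets fell and 1 rose. *Cyp2c37*, *Cyp2c54* and *Gsta1* share 14.3%, 14.5% and 39% of their read-length words with other genes.

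**Figure D4:**
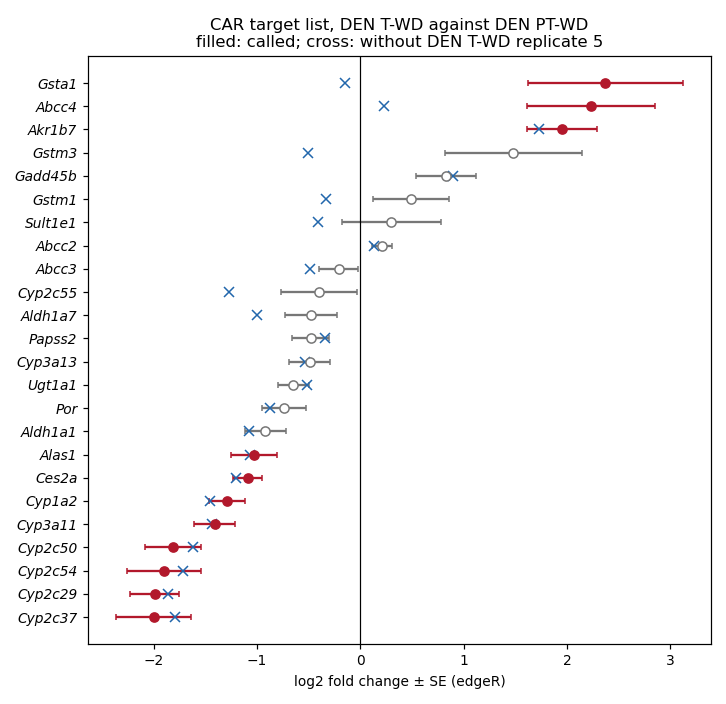
log2 fold change ± SE (horizontal axis) of the 24 CAR target genes in DEN T-WD against DEN PT-WD; filled points passed the test, and crosses are the values without DEN T-WD replicate 5. The 8 lower genes that passed also pass without that library, whereas the crosses of *Gsta1* (-0.15), *Abcc4* (0.23) and *Gstm3* (-0.51) lie near or below 0.

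Transcription factors and receptors known to act on these genes were read from a list. Of 24 such regulators, all tested, none passed in the 4 non-tumor comparisons by edgeR or DESeq2, and 1 fell in tumors. Of all genes 0.378% to 3.24% passed in either direction in the former and 3.09% fell in tumors. An unadjusted p under 0.05 was met by 7 to 11 of the 24 in the non-tumor comparisons, and by 4267 to 5591 of all 15625 genes. These counts are near the background. The gene that fell was *Ghr*, the growth hormone receptor, which fell by 1.09 on the log2 scale (adjusted p = 2.94e-09), from 322 ± 30.8 TPM (SD, n = 8) to 158 ± 7.38 TPM (SD, n = 6). *Rxra*, the partner of CAR, had -0.28 ± 0.07 in tumors (adjusted p = 0.00165) and *Nr1i2*, the related receptor PXR, -0.36 ± 0.10 (adjusted p = 0.00969), both under the fold required. *Hnf4a*, a hepatocyte factor needed for *Cyp2a* expression, had 0.04 ± 0.10 (adjusted p = 0.791). *Nfe2l2*, the antioxidant factor NRF2 that acts on *Cyp2a5*, had 0.14 ± 0.10 (adjusted p = 0.323), and *Hlf*, a D-box factor, -0.50 ± 0.13 (adjusted p = 0.00435). In DEN PT-WD against nonDEN L-WD, *Bcl6*, a repressor of female-predominant genes in males, had -1.51 ± 0.64 (adjusted p = 0.12) and *Cux2*, a female-specific factor, 1.18 ± 0.55 (adjusted p = 0.153). *Cux2* was low, at 0.19 to 0.93 TPM in DEN PT-WD and 0.07 to 0.32 TPM in nonDEN L-WD. In the same comparison *Stat5b* had -0.07 ± 0.07, *Onecut1* -0.06 ± 0.62, *Ghr* -0.20 ± 0.08 and *Esr1* 0.37 ± 0.26. None of these regulators passed.

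Of 10 other cytochrome genes and pseudogenes of the cluster, 4 had enough counts to be tested. *Cyp2g1*, an olfactory-type cytochrome, rose in nonDEN L-WD by 3.10 ± 0.60 (adjusted p = 0.00094) and in DEN L-CD by 3.13 ± 0.60 (adjusted p = 0.000887), both against nonDEN L-CD, from 0.133 ± 0.131 TPM (SD, n = 3) to 1.24 ± 0.687 and 1.29 ± 0.285 TPM (SD, n = 4 each). Of all genes 3.24% and 2.76% were higher in these comparisons, and with 4 genes tested a count of 1 or 0 cannot be read against such shares. None of the 4 passed in the other 3 comparisons by edgeR or DESeq2, beside 0.378% to 4.81% of all genes higher or lower. An unadjusted p under 0.05 was met there by 0, 0 and 2, and by 4630, 4267 and 7177 of all 15625 genes. Without both outlying libraries 2 fell in tumors.

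Because *Cyp2a4*, *Cyp2b9* and *Cyp2b13* are female-predominant, other sex-biased liver genes were set beside them. In DEN PT-WD against nonDEN L-WD 7 of 23 tested female-biased genes rose and none fell by edgeR, and 5 of 23 male-biased genes fell and none rose, beside 2.36% of all genes higher and 0.41% lower. DESeq2 gave 9 and 6 in the same directions and 0 in the opposite ones, in which no gene had an unadjusted p under 0.05. That p was reached by 4630 of all 15625 genes in either direction. The list medians were 1.30 and -0.66 on the log2 scale, beside 0.003 over all genes. *Cyp2c69* (5.12 ± 1.38, adjusted p = 0.02), *Cyp2c40* (4.01 ± 0.98, adjusted p = 0.0116) and *A1bg* (3.88 ± 1.08) rose most. *A1bg*, counted among the 7, is given with no p because it was near absent in nonDEN L-WD. It read 0 to 0.14 TPM there and 0 to 2.58 TPM in DEN PT-WD, and kept its call in 15 of 19 alternatives. *Cyp2c69* is a cytochrome near-identical to *Cyp2c40*, with 43.0% of its words shared, and *A1bg* encodes a plasma protein. Their spread over libraries was wide: *Cyp2c40* was 34.0 ± 36.9 TPM (SD, n = 8) in DEN PT-WD against 1.85 ± 0.563 TPM (SD, n = 4). The major urinary protein genes *Mup7* (-2.52 ± 0.69, adjusted p = 0.0211) and *Mup1* (-2.03 ± 0.50, adjusted p = 0.0119), which share 81.4% and 57.8% of their words with other genes, and the glucuronosyltransferase gene *Ugt2b38* (-1.59 ± 0.46, adjusted p = 0.0274) fell most. Neither *Mup* gene passed without nonDEN L-WD replicate 4 (log2 fold changes of -1.89 and -1.61). Over the alternatives the number of male-biased genes falling ran from 2 to 8, and the number of female-biased genes rising ran from 2 to 10, and was 10 without the outlying libraries.

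DEN PT-WD against DEN L-CD gave 5 female-biased genes higher and 5 male-biased genes lower, beside 1.52% of all genes higher and 0.378% lower, with none in the opposite directions by edgeR or DESeq2 or at an unadjusted p under 0.05, and medians of 1.35 and -0.85. The stellate and endothelial marker sums given above for this comparison differed as well, and their part was not tested. Over 18 alternatives the counts ran from 1 to 9 and from 3 to 11. The same *Cyp2c69*, *A1bg* and *Cyp2c40* led the increases (4.38, 3.46 and 3.26), and *Mup7*, *Mup1* and *Susd4*, a complement inhibitor, the decreases (-3.13, -2.34 and -1.78). *Cyp2c69*, *A1bg* and *Cyp2c40* kept these calls in 9, 9 and 13 of 18 alternatives, and *A1bg* read only 0.03 to 0.10 TPM in DEN L-CD. In the 2 comparisons against nonDEN L-CD the lists gave 3 higher and 1 lower (female-biased, nonDEN L-WD), 1 higher and 0 lower (female-biased, DEN L-CD) and 1 higher and 1 lower (male-biased, in each), by edgeR, beside all-gene shares of 3.24% higher and 2.04% lower for nonDEN L-WD, and of 2.76% higher and 1.93% lower for DEN L-CD. The female-biased medians were 0.57 in nonDEN L-WD and 0.98 in DEN L-CD and the male-biased medians -0.57 and -0.32, beside all-gene medians of 0.013 and 0.025. DESeq2 likewise gave 0 female-biased genes lower in DEN L-CD, none of which had an unadjusted p under 0.05. In tumors against DEN PT-WD the female-biased genes gave 3 higher and 3 lower by edgeR with a median of -0.65, whereas 8 male-biased genes fell and none rose, with a median of -1.04, beside 4.81% of all genes higher and 3.09% lower. *Nipal1*, *Abcd2* and *Cyp39a1* were the 3 higher (1.57, 1.47 and 1.35), and *Acot3*, *Slc22a26* and *Prlr*, the prolactin receptor, the 3 lower (-1.52, -1.25 and -1.11). None of the male-biased genes rose by DESeq2 or at an unadjusted p under 0.05. *Acot3*, *Slc22a26* and *Prlr* kept their calls in 8, 9 and 17 of 21 alternatives. The number of lower female-biased genes rests on single libraries: it was 0 without DEN PT-WD replicate 2, without DEN T-WD replicate 4 and without DEN T-WD replicate 5, 1 without DEN PT-WD replicate 8, DEN T-WD replicate 2 or DEN T-WD replicate 3, and 5 without DEN PT-WD replicate 7. The list median stayed below 0 in all 21, at -0.79 to -0.19. *Elovl3*, a fatty acid elongase, had the largest decrease among the male-biased genes that passed, at -1.86 ± 0.22 (adjusted p = 1.28e-06). *Cyp2a4* thus rose in tumors while the median of the female-biased list was below 0.

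**Figure D5:**
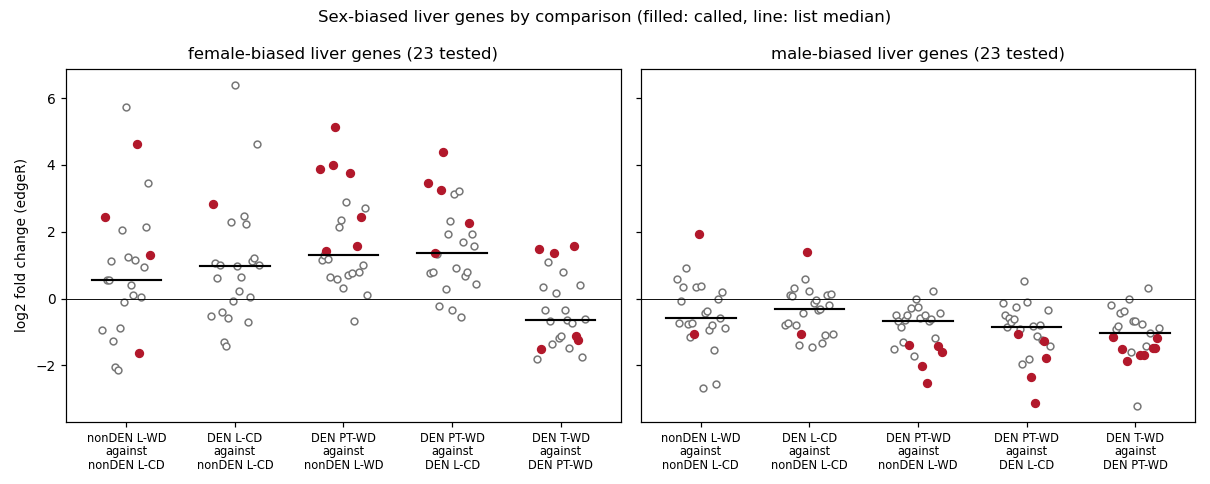
log2 fold change (vertical axis) of each tested female-biased and male-biased liver gene in the 5 comparisons; filled points passed the test and lines are list medians. The female-biased medians lie at 1.30 and 1.35 in both DEN PT-WD comparisons with non-tumor liver and at -0.65 in tumors, and the male-biased medians lie below 0 in all 5.

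Genes with the pattern most like each member were sought by Pearson correlation of log2 CPM over the 25 libraries, which share groups and so give r as a description only. *Cyp2a4* was followed by *Fam19a2* (r = 0.95), *Afp* (0.93) and *Ccdc34* (0.93). *Afp*, the fetal serum protein alpha-fetoprotein, had medians of 0.35, 0.48, 2.78, 15.5 and 60.1 TPM in the order nonDEN L-CD, nonDEN L-WD and DEN L-CD, then peritumoral liver and tumors. *Akr1c18*, a progesterone-reducing enzyme, was among the 3 genes most like both *Cyp2b9* (r = 0.91) and *Cyp2b13* (r = 0.92). It too was lowest among tumors in replicate 5, at 16.1 TPM against 231 to 379 TPM in the other 5. *Cyp2b9* was also followed by *Robo1* (0.93) and *Qk* (0.92), and *Cyp2b13* by the lipase gene *Pnpla5* (0.92) and *2310034O05Rik* (0.91). *Cyp2a5* was followed by *Cep70* (0.96), *Gstm2-ps1* (0.92) and *Ugt2b35* (0.91), with r of 0.95, 0.87 and 0.90 over the 23 libraries left without the outlying pair.

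*Nr1i3* was followed by *Nxpe2* (0.93), *Cyp2e1* (0.93) and *Tmem28* (0.92). *Cyp2e1*, the pericentral ethanol-oxidizing cytochrome, read 3808 to 6681 TPM in DEN PT-WD and 985 to 2489 TPM in DEN T-WD, without overlap, as for *Nr1i3*. *Cyp2a22* was followed by *Slc16a7*, *Gm19619* and *Pigp* (0.93, 0.93 and 0.91), and *Cyp2b10* less closely by *Gm10605*, *Nrbf2* and *Spg20* (0.79, 0.74 and 0.74). Among the members themselves *Nr1i3* had an r of 0.39 with *Cyp2b10*, -0.37 with *Cyp2a4* and -0.16 with *Cyp2b9* over the 25 libraries, and for deviations from the group means these were 0.21, -0.18 and 0.50.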

How the data were processed

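The authors aligned single-end reads of poly(A)-selected RNA to GRCm38 with STAR and estimated gene levels with RSEM; tool versions, annotation release and the use of strand are not given in the sources used here. The deposited expected counts (reads divided between genes, not normalized) and the deposited TPM values of all 25 libraries were used, with groups taken from the labels. Members, gene lists and tests were chosen with earlier results of these data known. Expected counts were rounded and fitted in edgeR 4.0.16 (R 4.3.3; TMM, filterByExpr with a minimum count of 10, glmQLFit) for all 5 groups together, and p-values were adjusted by Benjamini-Hochberg across 15625 genes. The test was tried on simulated data. Depth limits low genes: 3 counts per library were taken as the floor, and intervals (conditional binomial, 95%) cover counting error only. List genes are named as, per comparison, the called ones that changed most (up to 3 in each direction), regulators whether called or not, and the 3 genes most correlated with each member of at least 1 mean CPM (log2 CPM, prior count 2). *Gstm1* and *Gstm3* in the tumor library that stands apart, *Tomm40l*, and the acute phase and marker genes of the interaction were chosen after their values were seen. GENCODE M21 gave coordinates and transcripts, and RefSeq promoters matched all 7 members. DESeq2 1.42.0, its size factors, no filter, fits of the compared groups, a replicate block, summed copies and leaving out libraries were alternatives. No replicate pair agreed within sampling noise by a chi-square of its counts.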

Additional observations from a re-analysis of the deposited data

Results flagged for a closer look

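Of 28 groups of 4 to 8 libraries examined for the 7 members, 3 held a library whose gap to its nearest neighbour was a large part of the group's range by Dixon's test; chance alone flags about 1 group in 20. The nonDEN L-WD replicate 1 library read 12.75 TPM of *Cyp2a4*, against 0 to 1.06 TPM in the other 3. DEN T-WD replicate 5 read 7248 TPM of *Cyp2a5*, against 504 to 710 TPM in the other 5 tumors. DEN T-WD replicate 3 read 0.26 TPM of *Cyp2b10*, against 0.39 to 0.46 TPM in the other 5, on about 10 counts a library.

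For 4 genes of the CAR target, cluster, sex-biased and regulator lists the effect of DEN differed between the diets in edgeR's test of the interaction, which called 1.57% of all tested genes as higher and 1.18% as lower. They were 1 of 4 cluster genes tested, as lower, and 3 of 23 female-biased genes, as higher. None of 24 CAR targets, 23 male-biased genes and 24 regulators was called. Over these lists together the count is near the all-gene shares. *Cyp2g1* had an interaction of -2.62 ± 0.70 on the log2 scale (adjusted p = 0.0235): the DEN difference was 3.13 on the control diet and 0.50 on the western diet. *Cyp2c40* had 5.32 ± 1.38 (adjusted p = 0.0195), with -1.31 on the control diet and 4.01 on the western diet. *Cyp2c69* had 6.54 ± 1.98 (adjusted p = 0.0429), with -1.41 and 5.12, and kept its call in 8 of 24 alternatives. *Nipal1* had 2.29 ± 0.70 (adjusted p = 0.0445), with -0.71 and 1.58, and kept its call in 10 of 24. *Cyp2g1* kept its call in 21 of 24 and *Cyp2c40* in all 24. Among the acute phase genes and cell type markers, 12 more were called. They were 8 of 15 acute phase, 2 of 9 pericentral, 1 of 4 endothelial and 1 of 4 bile duct genes. No hepatocyte, macrophage, lymphocyte, stellate or pancreas marker was called. Higher were the acute phase genes *Saa2* (5.40), *Saa1* (4.88), *Lcn2* (4.88), *Orm2* (3.42), *Steap4* (2.07), *Saa3* (1.78), *Hp* (1.42) and *Itih4* (1.29), and the markers *Sox9* (1.62) and *Lyve1* (1.52). The pericentral markers *Lgr5* (-1.54) and *Oat* (-1.11) were lower. All 8 acute phase genes had a DEN difference below 0 on the control diet, where nonDEN L-CD replicates 2 and 3 held the high acute phase sums. The western-diet arm is peritumoral liver, so an effect of diet and nearness to a tumor cannot be told apart. Members with counts above the floor had interactions of -1.78 ± 0.86 (*Cyp2a5*), -1.34 ± 1.04 (*Cyp2a22*), 1.41 ± 0.87 (*Cyp2b10*) and -0.89 ± 0.38 (*Nr1i3*), given without a test because the contrast holds the libraries that drew attention to them.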

How the results depend on the processing

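All counts of called genes stayed within 1.5 times the values given under DESeq2, its size factors, no filter, fits of the compared groups and the replicate block. Leaving out 1 library at a time moved them over 507 to 959 (diet without DEN, 825 with all libraries), 430 to 842 (DEN L-CD against nonDEN L-CD, 734), 201 to 604 (DEN PT-WD against nonDEN L-WD, 432), 173 to 437 (DEN PT-WD against DEN L-CD, 297), 1114 to 1316 (DEN T-WD against DEN PT-WD, 1235) and 232 to 600 (interaction, 430). The lowest counts came without nonDEN L-CD replicate 2 (507, 430 and 232), nonDEN L-WD replicate 4 (201) and DEN L-CD replicate 3 (173); the interaction count was 258 without nonDEN L-CD replicate 3. With *Cyp2a4*, *Cyp2b9* and *Cyp2b13* counted although they are described without a test in DEN PT-WD against nonDEN L-WD, called members numbered 3 to 4 in both tested comparisons when 1 library was left out. Replicate numbers are shared between groups. The deviations of same-numbered libraries had r of -0.23 to 0.388, which does not settle whether some share an animal, and the block was only an alternative. The block gave 334 genes in DEN PT-WD against nonDEN L-WD and 1133 in DEN T-WD against DEN PT-WD. It added the call of *Cyp2a22* to the former, and turned *Cyp2a5* in tumors to -0.10. With 1 library left out at a time *Cyp2a5* in tumors ran from -0.48 to 1.10, reversed without DEN T-WD replicate 5 (-0.48), and it was also reversed without both outlying libraries (-0.50, a setting chosen after seeing the data); DESeq2 gave it no adjusted p. *Cyp2b9* in tumors passed at 1.51, 1.63 and 1.45 without DEN PT-WD replicate 2, without DEN T-WD replicate 5 and without both outlying libraries. The cause was not tested. The order of the groups by mean was the same in TPM and normalized counts. Of the 3 genes most like each member, 1 (*Cyp2a5*) or none was shared when deviations from group means were correlated.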
